A study of Homo sapiens with 6 samples.

Results

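The genes described here encode the enzymes that place and remove methyl and acetyl groups on histones, in the established human cell line BCWM1. The line comes from Waldenström macroglobulinemia, in which lymphoma cells lie between B cells and plasma cells and secrete IgM. They were taken by symbol, from probe sets whose platform annotation gives a single gene: every symbol that begins with HDAC, KDM, KMT or SETD, SIRT or KAT followed by a digit, and EZH1, EZH2, EED, SUZ12, NSD1, NSD2, NSD3, DOT1L, CREBBP and EP300. The rule found 76 of the 19775 genes with such a probe set, and 222 of 41091 probe sets. Total RNA was hybridised as biotin-labelled cRNA to 6 arrays, 3 from BCWM1 cells labelled mutated and 3 from parental BCWM1 cells. The series title gives the mutation as C1013G/CXCR4, and CXCR4 is the surface receptor through which CXCL12 attracts lymphocytes. The sources used here do not give how the mutated cells were made, whether they are 1 clone, or whether the parental cells carry a vector. Separate cultures are not named within a group, so each p-value measures the spread between these samples alone, and that spread may be technical.

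Acetyl groups on histone tails are added by acetyltransferases such as CREBBP and EP300 and removed by zinc-dependent deacetylases (HDAC1 to HDAC11) and by the NAD-dependent sirtuins, and acetylation goes with open, transcribed chromatin. Methyl groups are placed on particular lysines: H3K4 at active promoters and enhancers by the KMT2 and SETD1 enzymes, H3K27 in silenced genes by Polycomb repressive complex 2 (PRC2), and H3K36 along transcribed genes by SETD2 and the NSD enzymes. Demethylases of the KDM1 pair use a flavin, and the other KDM families use oxygen, iron and 2-oxoglutarate. In germinal centre B cells EZH2 is needed to hold differentiation genes silent, and CREBBP, EP300, KMT2D and EZH2 are among the genes most often mutated in B cell lymphomas.

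Values are the authors' intensities per probe set on a linear scale. Changes are given as log2 differences, mutated minus parental, of log2(intensity + 16), a scale that understates the change of dim genes. Probe sets in the dimmest 40% by mean were left out, a gene was represented by its brightest remaining probe set, and the fit was made with limma over all 13644 genes that remained. "Rose" and "fell" are used for genes with an adjusted p under 0.05 (limma, Benjamini-Hochberg adjustment over all 13644 genes). KDM5D lies on the Y chromosome, and its level is not reported. Of the other 75 members, with 221 probe sets, 71 were tested, with 186 probe sets.

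The 6 arrays had median intensities of 31.42, 30.93 and 31.83 in mutated cells and 29.13, 28.46 and 28.99 in parental cells. Pearson's r across tested probe sets, which are not independent replicates, lay between 0.994 and 0.996 for arrays of the same group and between 0.967 and 0.970 for a mutated and a parental array. CXCR4 averaged 4259 ± 85.5 in mutated cells and 4741 ± 52.1 in parental cells (SD, n = 3 each) on its brightest probe set, a log2 change of −0.15 (limma, adjusted p = 0.029). Of 9 B lineage markers all passed the brightness filter, and 3 rose (CD79A, CD79B, CD37) and 2 fell (CD22, IGHM). Their summed intensity was 37633 to 39275 in mutated cells and 39248 to 41419 in parental cells. Of 6 plasma cell markers 1 rose (MZB1, 0.48) and 3 fell (PRDM1, −1.59; SDC1, −0.87; CD38, −0.65), with sums of 9471 to 10329 in mutated cells and 10313 to 10902 in parental cells. Of 5 T cell markers 1 rose (CD28), with sums of 108 to 116 in mutated cells and 98.1 to 104 in parental cells, and CD3D, CD3E and CD3G were below the brightness filter. Of 4 NK cell markers 2 were tested, and of 4 monocyte or macrophage markers 1, and none of these passed. The sums over all 4 were 116 to 184 and 38.8 to 43.0 in mutated cells, against 135 to 158 and 36.2 to 38.6 in parental cells. KLRD1, GNLY, CD14, LYZ and CD163 were below the filter. Of 6 stromal markers COL1A1 fell (−0.67), DCN did not pass, and COL1A2, COL3A1, LUM and PDGFRB were below the filter; their sum was 478 to 581 in mutated cells and 744 to 832 in parental cells. The part of these shifts in the results was not tested. In bulk RNA, fewer cells of a kind and less RNA per cell cannot be told apart.

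Of the 71 members tested, 22 rose and 13 fell, together 49.3%. Among all genes tested the same call rule gave 49.3%, with 30.3% that rose and 19.0% that fell, against 31.0% and 18.3% of the members. The groups did not overlap in 47 members (66.2%), against 61.2% of all genes. These shares lie near those of all genes and are not a result about the enzymes. Their median log2 change was 0.07, against 0.04 over all genes. The changes were also mostly small: 12 members (16.9%) passed with an absolute log2 change of at least 0.5, against 17.7% of all genes, and log2 changes of all members ran from −0.64 to 1.17. Over probe sets, 61 of 186 rose (32.8%) and 35 fell (18.8%), against 30.9% and 16.6% of all 32768 probe sets tested, of which 47.5% were called.

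The balance of rises and falls depended on how the arrays were scaled. After quantile normalization 18 members rose and 21 fell. After each array was centred on its median, 17 rose and 22 fell. On the deposited scale 62.9% of the members' calls and 61.5% of the calls over all genes were rises. Quantile normalization gave 46.2% and 49.2%, and median centring 43.6% and 46.1%. Genes are therefore described singly, and no class is given a direction as a whole. The counts given by class rest on 2 to 10 genes each and stand beside the 30.3% and 19.0% of all genes that rose and fell.

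**Figure D1:**
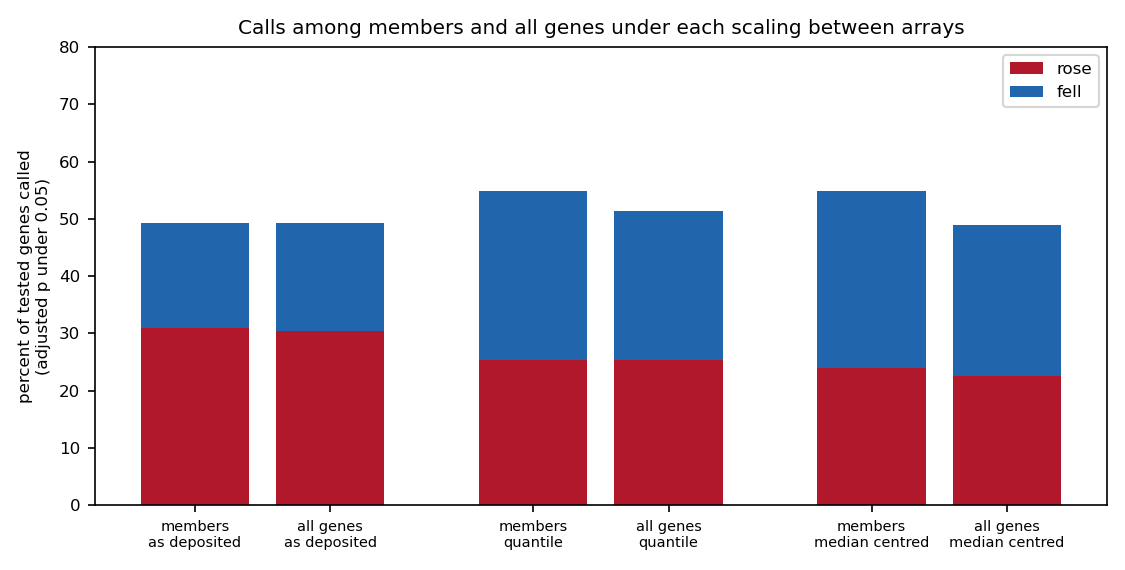
Percent of tested genes that rose (red) or fell (blue) in mutated cells against parental cells, for the 71 histone enzyme members and for all genes tested, under 3 scalings between arrays. As deposited, 49.3% of both were called, and the share that fell was larger under the other scalings in both.

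**Figure D2:**
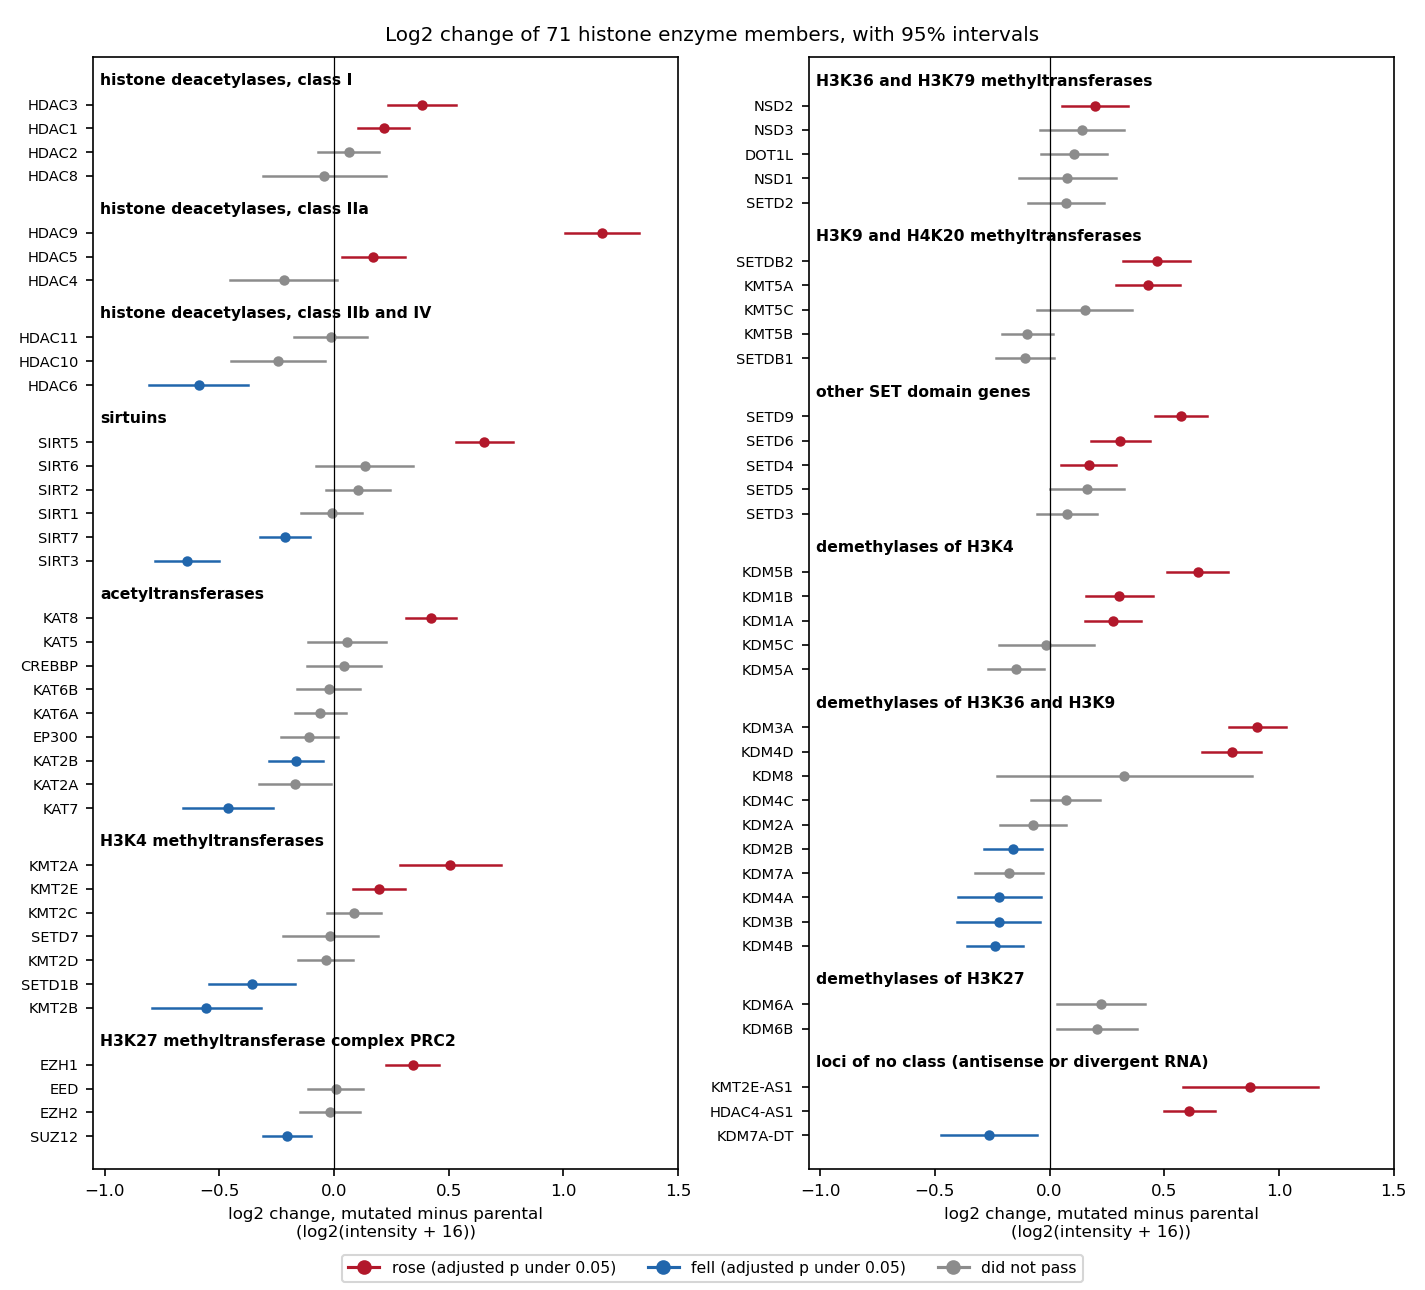
Log2 change of each tested member, mutated minus parental, by enzyme class; points are estimates, lines are 95% intervals of single genes from the limma fit (not adjusted for the number of genes), and colour marks the call. Every enzyme class holds members that did not pass, and the log2 changes run from −0.64 for SIRT3 to 1.17 for HDAC9.

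After HDAC9, described with its class because its probe sets disagreed, the largest rises among the enzymes were in the lysine demethylases KDM3A and KDM4D. KDM3A removes mono- and dimethyl marks from H3K9 and is a known target of hypoxia-inducible factors. Its only tested probe set read 2552, 2515 and 2357 in mutated cells, against 1298, 1328 and 1312 in parental cells. The lowest mutated value was far above the highest parental value. The fold was 1.87 and the log2 change 0.91 (SE 0.051; limma, adjusted p = 2.2e-05), and no alternative among the 16 that tested it ended the call or turned it. KDM4D, which removes di- and trimethyl marks from H3K9, was dim and read 89.9, 84.1 and 83.5 in mutated cells, against 42.5, 44.95 and 40.7 in parental cells. The log2 change was 0.79 (SE 0.054; limma, adjusted p = 5.1e-05), and the groups did not overlap. Its other probe set, at 49.6, 54.1 and 48.2 in mutated cells and 39.4, 38.1 and 35.6 in parental cells, rose as well (log2 change 0.31). KDM5B, which removes methyl groups from H3K4, read 286, 287 and 280 in mutated cells, against 188, 173 and 168 in parental cells. The groups did not overlap, and the log2 change was 0.65 (SE 0.056; limma, adjusted p = 1.6e-04). Of its other 3 tested probe sets 2 rose (0.43 and 0.69). The dimmest, between 20.1 and 31.4 in all 6 samples, gave 0.03. It represents KDM5B when probe sets with the suffixes _s_at and _x_at, whose probes may match more than one transcript, are left out, and the call then ended (limma, adjusted p = 0.80).

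The promoters of these 3 demethylases are shown because these are the demethylases with the largest rises and KDM3A is a known target of hypoxia-inducible factors. Each run is the 250 bases before the gene's start in RefSeq (GRCh38.p14), 5′ to 3′ on the strand of the gene. Capitals mark ACGTG or GCGTG on either strand, the core bound by hypoxia-inducible factors. The form ACGTG also lies within the E-box CACGTG, while the sites marked below are GCGTG.
KDM3A (chr2:86441121-86441370, plus strand): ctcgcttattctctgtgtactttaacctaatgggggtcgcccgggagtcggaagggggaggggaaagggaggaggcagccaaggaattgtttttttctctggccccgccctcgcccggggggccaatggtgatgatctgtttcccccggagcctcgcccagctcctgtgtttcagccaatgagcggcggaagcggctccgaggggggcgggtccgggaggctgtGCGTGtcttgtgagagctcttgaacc
KDM4D (chr11:94973459-94973708, plus strand): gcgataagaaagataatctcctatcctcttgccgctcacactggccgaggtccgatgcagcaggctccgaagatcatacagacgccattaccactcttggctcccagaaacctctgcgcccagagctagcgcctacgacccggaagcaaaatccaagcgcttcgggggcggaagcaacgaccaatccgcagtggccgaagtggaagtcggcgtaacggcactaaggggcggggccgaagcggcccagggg
KDM5B (chr1:202808422-202808671, minus strand): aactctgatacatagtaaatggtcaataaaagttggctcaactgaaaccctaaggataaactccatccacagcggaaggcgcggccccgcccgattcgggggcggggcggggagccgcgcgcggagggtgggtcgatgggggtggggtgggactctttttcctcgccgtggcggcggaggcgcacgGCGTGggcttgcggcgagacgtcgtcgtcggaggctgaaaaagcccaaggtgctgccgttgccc

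The core stood once in the KDM3A window, starting 26 bases before the start, and once in the KDM5B window, starting 64 bases before it. These letters were not in the KDM4D window. RefSeq's table had promoters for 64 of the 71 tested members, some with several starts, and KDM3A has a second start whose window holds the same site. At least 1 window with the core was found in 13 of 20 members that rose (65.0%), 9 of 11 that fell (81.8%) and 26 of 33 that did not pass (78.8%), and in 47.4% of all 27305 genes of the table. Over single windows the core was in 43.2% of 35116. The table also holds genes that were not tested here, and a gene with more starts has more windows. The shares of members and of all genes are therefore not like for like, and a matched background was not computed.

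The H3K4 demethylases of the flavin type, KDM1A and KDM1B, rose by less than KDM5B. KDM1A, also called LSD1, averaged 992 ± 18.6 in mutated cells and 815 ± 31.4 in parental cells, and KDM1B 266 ± 13.8 and 213 ± 10.5 in the same order (SD, n = 3 each). Their log2 changes were 0.28 and 0.30 (limma, adjusted p = 0.0044 and 0.0064), with no overlap between groups. That of KDM1B did not pass with quantile normalization (limma, adjusted p = 0.052). KDM5A (−0.14) and KDM5C (−0.01) did not pass, while 1 of the 4 other KDM5A probe sets fell (−0.44). Of the 5 tested H3K4 demethylases 3 thus rose and the other 2 did not pass. KDM5A passed as lower with both other scalings, which gave 2 rises and 1 fall with quantile normalization and 3 rises and 1 fall with median centring.

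Among the 10 tested demethylases of H3K9 and H3K36, KDM3A and KDM4D rose while 4 relatives fell slightly. KDM4B read 1423, 1443 and 1345 in mutated cells, against 1623, 1691 and 1660 in parental cells, a log2 change of −0.24 (SE 0.051; limma, adjusted p = 0.0085). The groups did not overlap, 4 of its 6 other tested probe sets fell too (the lowest at −0.60), and the call held in every alternative. KDM4A (−0.22), KDM3B (−0.22) and KDM2B (−0.16), the last a CpG-binding protein that brings Polycomb complexes to DNA, fell with adjusted p between 0.043 and 0.049 (limma). Each of these 3 calls ended in 7 or 8 of its alternatives. KDM2A (−0.07), KDM7A (−0.18) and KDM8 (0.33) did not pass, although KDM7A passed as lower with both other scalings. KDM4C (0.07) did not pass on its brightest probe set, although its 3 other tested probe sets all rose, by 0.41 to 0.55.

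The H3K27 demethylases KDM6A (0.22) and KDM6B (0.21) did not pass (limma, adjusted p = 0.058 and 0.055). KDM6A read 730, 638 and 734 in mutated cells, against 640, 600 and 555 in parental cells. The lowest mutated value fell just under the highest parental one. Among the 3 other KDM6A probe sets 1 rose (0.31), and among the 4 of KDM6B 1 fell (−0.43).

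**Figure D3:**
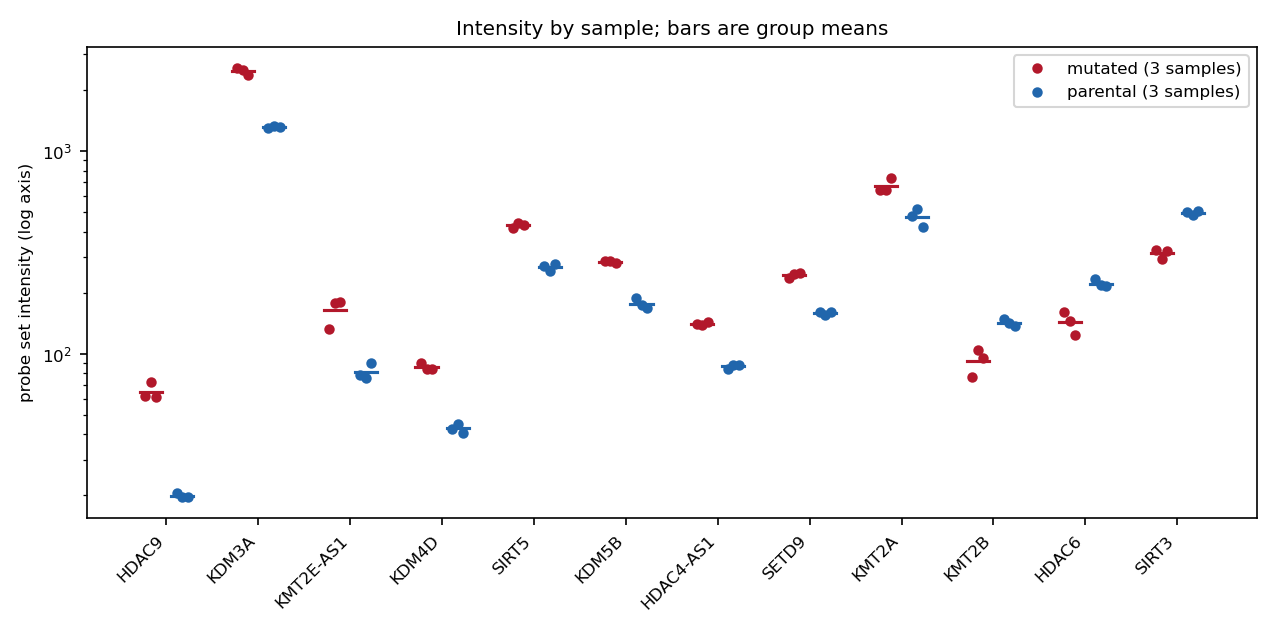
Probe set intensity on a log axis for the 12 members past the threshold with an absolute log2 change of at least 0.5; dots are the 3 mutated (red) and 3 parental (blue) samples and bars are group means. In none of the 12 do the 2 groups overlap, and KMT2B, HDAC6 and SIRT3 are the 3 with mutated values below the parental ones. The 12 were chosen by their change between these same samples, so the lack of overlap is no separate support.

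Methyltransferases of H3K4 moved in both directions. KMT2A, also called MLL1 and a frequent fusion partner in leukaemia, read 643, 643 and 736 in mutated cells, against 476, 515 and 421 in parental cells. The log2 change was 0.51 (SE 0.092; limma, adjusted p = 0.0043), without overlap. All 8 of its other tested probe sets were higher in mutated cells, by 0.12 to 0.72, and 6 of them rose. The one with the largest rise read 519, 497 and 523 in mutated cells, against 300, 322 and 293 in parental cells. KMT2B, the closest relative of KMT2A, read 76.7, 104 and 95.1 in mutated cells, against 148, 141 and 137 in parental cells. All mutated values were below all parental values, with a log2 change of −0.56 (SE 0.099; limma, adjusted p = 0.0040). The KMT2A and KMT2B calls held in every alternative. The other tested KMT2B probe set gave −0.31, at means of 16.9 in mutated and 24.7 in parental cells. With the edge of the brightness filter at 18.0, it was tested only through its parental values and is no separate support.

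SETD1B, a further H3K4 methyltransferase, read 271, 278 and 237 in mutated cells, against 317, 342 and 360 in parental cells, and fell by 0.36 on the log2 scale (limma, adjusted p = 0.0097). KMT2E, which carries a SET domain but is not known as an active H3K4 enzyme, rose by 0.20 (limma, adjusted p = 0.014), a call lost with median centring (limma, adjusted p = 0.097) and when a plain-suffix probe set represented the gene (0.40). KMT2D, the enhancer methyltransferase often mutated in lymphoma, read 305, 313 and 318 in mutated cells, against 312, 333 and 316 in parental cells. It did not pass, and the 95% interval of its log2 change was −0.16 to 0.08. KMT2C (0.09) and SETD7 (−0.02) did not pass either. SETD1A was too dim to be tested. Of the 7 tested H3K4 methyltransferases 2 thus rose and 2 fell.

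In PRC2, which methylates H3K27, 1 of 4 core subunits rose, 1 fell and 2 did not pass. EZH2, its main catalytic subunit in dividing cells, read 1301, 1207 and 1303 in mutated cells, against 1270, 1261 and 1325 in parental cells. The groups overlapped, and the 95% interval of the log2 change was −0.15 to 0.11. EED, the subunit that reads the methyl mark, read 2828, 2777 and 2659 in mutated cells and 2717, 2817 and 2690 in parental cells, with an interval of −0.11 to 0.13. A dim second EED probe set stood apart from it, at 115, 110 and 87.6 in mutated cells and 43.0, 60.2 and 50.4 in parental cells (log2 change 0.84). SUZ12 fell by 0.21 (limma, adjusted p = 0.0089), a call that ended when its probe sets were averaged (0.25). EZH1, the catalytic subunit that prevails in resting cells, read 510, 542 and 516 in mutated cells, against 412, 412 and 401 in parental cells. It rose by 0.34 (SE 0.048; limma, adjusted p = 0.0014) without overlap and kept the call in every alternative. Of its 4 other probe sets 3 rose (0.28 to 0.62) and 1 fell (−0.36).

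Of the enzymes of H3K36 and H3K79, NSD2 alone among the 5 tested passed. NSD2, overexpressed through a translocation in some myelomas, read 2090, 1982 and 1849 in mutated cells, against 1689, 1755 and 1701 in parental cells. The groups did not overlap, and it rose by 0.20 (limma, adjusted p = 0.031), while 3 of its 5 other probe sets rose by 0.21 to 0.47. The NSD2 call on the brightest probe set ended in 8 of 17 alternatives. NSD3 (0.14) did not pass, although 4 of its 5 other tested probe sets rose by 0.38 to 0.53. SETD2 (0.07), NSD1 (0.08) and DOT1L (0.11) did not pass.

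For H3K9 and H4K20, SETDB2 and KMT5A rose among 5 tested enzymes. SETDB2, a relative of the H3K9 methyltransferase SETDB1, read 317, 355 and 330 in mutated cells, against 227, 244 and 241 in parental cells. It rose by 0.47 (SE 0.060; limma, adjusted p = 9.4e-04), and the call held in every alternative. All 5 of its other probe sets were higher, 3 of them past the threshold. The dimmest of these 3 averaged 31.7 in mutated cells and 17.35 in parental cells. With the edge of the brightness filter at 18.0, it was tested only through its mutated values and is no separate support. KMT5A, which monomethylates H4K20, averaged 526 ± 15.3 in mutated cells and 387 ± 21.3 in parental cells (SD, n = 3 each), a log2 change of 0.43 (limma, adjusted p = 0.0012). Its 3 other probe sets, at −0.14 to 0.02, did not pass, and the call ended when the probe sets were averaged (limma, adjusted p = 0.35). SETDB1 (−0.11), KMT5B (−0.10) and KMT5C (0.15) did not pass, while both other KMT5B probe sets fell (−0.40 and −0.24). KMT5B and SETDB1 passed as lower with both other scalings, which makes 2 rises and 2 falls.

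Among the SET domain genes with other or little known substrates, SETD9 rose most by the brightest probe set of each gene. It read 236, 246 and 250 in mutated cells, against 160, 156 and 160 in parental cells, with no overlap and a log2 change of 0.57 (SE 0.047; limma, adjusted p = 1.3e-04). SETD6, which methylates the NF-kB subunit RELA, averaged 231 ± 6.63 in mutated cells and 184 ± 8.34 in parental cells (SD, n = 3 each) and rose by 0.31 (limma, adjusted p = 0.0036), with 0.21 on its other probe set. SETD4 rose as well, making 3 rises among the 5 tested, but its probe sets disagreed. SETD3 (0.08), which methylates a histidine of actin, and SETD5 (0.16) did not pass. The other SETD3 probe set rose by 0.57, at 160, 178 and 183 in mutated cells and 119, 105 and 113 in parental cells.

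Deacetylases of class I, which include the catalytic subunits of nuclear repressor complexes, held 2 rises among 4. HDAC3, the subunit of NCoR complexes, read 1945, 1891 and 1797 in mutated cells, against 1464, 1501 and 1349 in parental cells. The groups did not overlap, with a log2 change of 0.38 (SE 0.062; limma, adjusted p = 0.0026), and the call held in the 16 alternatives that tested it. HDAC1 averaged 2415 in mutated cells and 2077 in parental cells and rose by 0.22 (limma, adjusted p = 0.0092), a call lost with median centring (0.058). HDAC2 read 3362, 3099 and 3312 in mutated cells, against 3212, 3126 and 3004 in parental cells. It did not pass, with an interval of −0.07 to 0.20, nor did HDAC8 (−0.04).

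HDAC6, the cytoplasmic deacetylase of tubulin, was the one member of classes IIb and IV that fell, of 3 tested. It read 160, 145 and 124 in mutated cells, against 232, 217 and 215 in parental cells. All mutated values were below all parental ones, and the log2 change was −0.59 (SE 0.090; limma, adjusted p = 0.0021), a call that held in all 16 alternatives that tested it. Its relative HDAC10 (−0.24; limma, adjusted p = 0.052) and HDAC11 (−0.01) did not pass, although HDAC10 passed as lower with both other scalings.

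HDAC9, a class IIa enzyme that binds MEF2 transcription factors, gave the largest log2 change of all members, but its probe sets went opposite ways. The brightest read 61.5, 72.3 and 60.8 in mutated cells, against 20.4, 19.6 and 19.6 in parental cells, a log2 change of 1.17 (SE 0.067; limma, adjusted p = 2.4e-05). The next, nearly as bright over all samples, read 14.6, 18.0 and 14.4 in mutated cells, against 50.4, 78.2 and 82.7 in parental cells, a log2 change of −1.43. The dimmest of the 3 that were tested gave −0.46. In mutated cells the second averaged 15.6 and the dimmest 14.6, under the brightness filter's edge of 18.0. Both were thus tested only through their parental values. In the first the mutated cells were high, in the second the parental cells, and in neither did the groups overlap. With quantile normalization, or without any 1 mutated sample, the second probe set became the brighter one and the gene's change was −1.53 to −1.40. HDAC5 rose by 0.17 (limma, adjusted p = 0.044), a call that ended in 11 of its 17 alternatives. HDAC4 (−0.22) did not pass on its brightest probe set, which read 51.2, 44.2 and 50.1 in mutated cells and 54.3, 53.7 and 70.3 in parental cells. Its other tested probe set rose by 0.36. HDAC4 passed as lower with both other scalings, so that 2 of the 3 tested class IIa genes fell with quantile normalization, and 1 rose and 1 fell with median centring. HDAC7 was left out as too dim on both its probe sets, the brighter of which read 5.50, 12.9 and 7.52 in mutated cells and 25.1, 24.8 and 20.6 in parental cells.

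The mitochondrial sirtuins SIRT5 and SIRT3 changed in opposite directions on their brightest probe sets. SIRT5, which removes succinyl and malonyl groups from lysines, read 418, 441 and 433 in mutated cells, against 271, 256 and 276 in parental cells. The log2 change was 0.66 (SE 0.052; limma, adjusted p = 1.0e-04), and the groups did not overlap. SIRT3, the main mitochondrial deacetylase, read 326, 292 and 321 in mutated cells, against 501, 483 and 506 in parental cells. It fell by 0.64 (SE 0.058; limma, adjusted p = 2.1e-04), again without overlap. Both genes have dim probe sets of opposite sign. A second SIRT3 probe set read 74.6, 69.4 and 65.2 in mutated cells, against 50.8, 44.1 and 56.0 in parental cells (0.37). Among the 4 other tested SIRT5 probe sets 1 rose (0.47) and 1 fell (−0.26). When probe sets were averaged, neither gene passed (SIRT5, 0.16, limma, adjusted p = 0.12; SIRT3, −0.07, limma, adjusted p = 0.29). SIRT7, the nucleolar sirtuin, fell by 0.21 (limma, adjusted p = 0.0082), a call that held in all 16 alternatives that tested it. SIRT1 (−0.01), SIRT2 (0.10) and SIRT6 (0.13) did not pass, and SIRT4 was too dim to be tested. Of 6 tested sirtuins 1 thus rose and 2 fell.

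**Figure D4:**
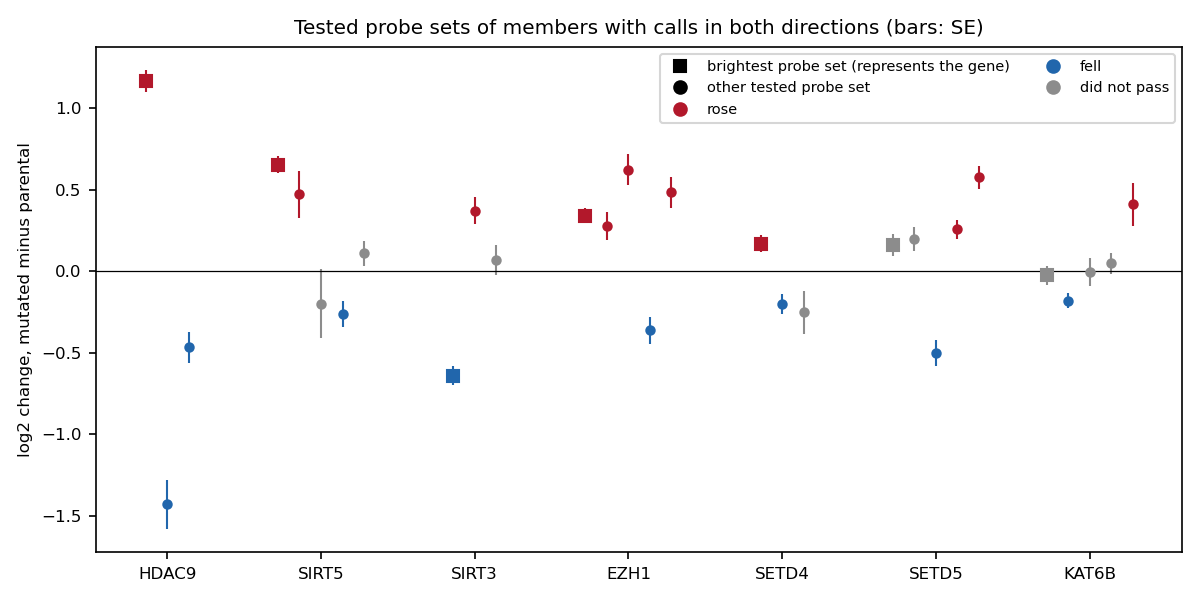
Log2 change, mutated minus parental, of each tested probe set of the 7 members that had probe sets past the threshold in both directions; squares are the brightest probe set of a gene, the others follow from left to right in order of brightness, and bars are the SE of the fit. HDAC9 spans −1.43 to 1.17, but its falling probe sets passed the brightness filter only through their parental values. The brightest probe sets of SETD5 and KAT6B did not pass.

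Probe sets of the same gene disagreed in other members as well. This was not counted over all genes, so the counts that follow are not a result about the enzymes. Of the 48 members with more than 1 tested probe set, 23 had all of them on one side of 0 and 25 had both signs. In 7, namely HDAC9, SIRT5, SIRT3, EZH1, SETD4, SETD5 and KAT6B, probe sets passed in both directions. For HDAC9 the falling ones were tested only through their parental values. SETD4 rose by 0.17 on its brightest probe set and fell by 0.20 on another. Of 28 members that did not pass and had another tested probe set, 11 had one that rose and 10 one that fell. Which transcript each probe set reads was not analysed here.

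Of the 9 tested acetyltransferases 1 rose and 2 fell. With quantile normalization 3 fell, and with median centring 5. KAT8, which acetylates H4K16, read 815, 834 and 805 in mutated cells, against 615, 593 and 613 in parental cells. It rose by 0.42 (SE 0.046; limma, adjusted p = 4.5e-04) without overlap, although its dim probe set with the plain suffix gave 0.11 (limma, adjusted p = 0.48 where it represents the gene). KAT7, also called HBO1, which acetylates H3 and H4 and acts at replication origins, read 394, 319 and 350 in mutated cells, against 511, 474 and 490 in parental cells. All mutated values were lower, and the gene fell by 0.46 (SE 0.082; limma, adjusted p = 0.0039), a call that held in every alternative. KAT2B fell by 0.16 (limma, adjusted p = 0.031), a call that ended in 6 of 17 alternatives. CREBBP read 686, 663 and 767 in mutated cells, against 661, 694 and 695 in parental cells, and its interval was −0.12 to 0.20. EP300 read 1422, 1453 and 1519 in mutated cells, against 1545, 1556 and 1637 in parental cells. All its mutated values were lower, but it did not pass (log2 change −0.11, interval −0.23 to 0.02; limma, adjusted p = 0.13), while its second probe set fell by 0.34. With median centring EP300 did pass as lower (−0.19; limma, adjusted p = 0.026). KAT2A (−0.17), KAT5 (0.05), KAT6A (−0.06) and KAT6B (−0.02) did not pass. KAT2A passed as lower with both other scalings, and KAT6A with median centring.

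The rule also took RNAs that lie beside an enzyme gene and encode no enzyme. KMT2E-AS1 read 132, 178 and 180 in mutated cells, against 78.2, 75.8 and 90.1 in parental cells. It rose by 0.87 (SE 0.12; limma, adjusted p = 0.0014) without overlap, beside the 0.20 of KMT2E. HDAC4-AS1 read 140, 138 and 143 in mutated cells, against 83.7, 88.0 and 87.5 in parental cells. It rose by 0.61 (limma, adjusted p = 8.6e-05), while HDAC4 did not pass on its brightest probe set (−0.22) and rose by 0.36 on another that was nearly as bright. KDM7A-DT, the divergent transcript of KDM7A, fell by 0.26 (limma, adjusted p = 0.045), a call that ended in 8 of its 16 alternatives. HDAC2-AS2 was too dim to be tested. Whether these probe sets tell the strands apart was not analysed here.

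The enzymes work in complexes, and 136 genes of their partners, of other writers and erasers and of readers were tested, of which 41 rose (30.1%) and 30 fell (22.1%), with a median log2 change of −0.02. Among all genes 30.3% rose and 19.0% fell, so these shares, too, lie near the background. Of 14 components of PRC1, the Polycomb complex that ubiquitinates H2A, 6 rose and 1 fell. PCGF5 averaged 2087 ± 36.9 in mutated cells and 1264 ± 12.7 in parental cells (0.72), PCGF2 968 ± 20.3 and 551 ± 20.7 in the same order (0.80), and PCGF6 fell (−0.25; SD, n = 3 each). The PCGF2 probe set has the suffix _x_at, and other probe sets of partner genes are not described here. Of 9 PRC2 partners 3 rose and 2 fell, with EPOP (0.75) and PHF1 (0.26) up and LCOR (−0.34) and JARID2 (−0.18) down. Of 12 partners in COMPASS, the complex of H3K4 methyltransferases, 1 rose (PAGR1, 0.41) and 3 fell, among them CXXC1 (−0.48), which guides SETD1 complexes to CpG islands, and HCFC1 (−0.29).

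Of 26 partners in HDAC complexes 11 rose and 5 fell. ING2 (0.63), a reader of H3K4 methylation in the SIN3 complex, and MTA3 (0.71), a NuRD subunit of germinal centre B cells, rose, and BRMS1 (−0.51) and MBD3 (−0.35) fell. Of 35 acetyltransferase partners 10 rose and 5 fell. YEATS2 (0.63) and SUPT3H (0.72) rose, and EPC2 (−0.22) fell. MSL3, a partner of KAT8 in the MSL complex, averaged 3372 ± 72.1 in mutated cells and 5658 ± 153 in parental cells (SD, n = 3 each), and fell by 0.74, while KAT8 itself rose. Of the other MSL genes listed, MSL2 rose (0.22) and MSL1 did not pass (0.17). Of 31 other writers and erasers 9 rose and 10 fell, with SMYD3 (0.58) and ELP3 (0.34) up and RIOX1 (−0.77) and SMYD5 (−0.57) down. Of 9 acetyl-lysine readers 1 rose (BRD3, 0.18) and 4 fell, among them BRD9 (−0.48) and ATAD2B (−0.20). The balance within these lists depended on the scaling as well. Of the HDAC partners 9 rose and 9 fell with quantile normalization, and 7 rose and 9 fell with median centring. Of the acetyltransferase partners 10 rose and 9 fell with quantile normalization, and 5 rose and 8 fell with median centring. Of the COMPASS partners 6 fell with either. Of the PRC1 components 6 rose and 3 fell with either, and of the PRC2 partners 3 rose and 4 fell with median centring. Of the other writers and erasers 6 rose with either, while 13 fell with quantile normalization and 12 with median centring. Of the readers 4 fell with either, and the rise of BRD3 no longer passed.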

How the data were processed

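The deposited table holds the authors' intensity for each of 54613 probe sets on 6 arrays, on a linear scale. RNA was labelled as cRNA with biotin, per the labels' protocols. The sources used here do not give the summary method, background correction or scaling between arrays. Between 2.01% and 2.36% of an array's values were exactly 1. The platform annotation gives 1 symbol to 41091 probe sets, several to 1801 and none to 11721. By Entrez ID, 41037 of the 41091 were matched to RefSeq (GRCh38.p14), which changed 0 symbols. KAT14 and KDM4E were not analysed here.

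Values were transformed as log2(intensity + 16). After the dimmest 40% of probe sets by mean were removed, 32768 entered a two-group fit with limma 3.58.1 (lmFit and eBayes, R 4.3.3; tests are two-sided, no covariates). Benjamini-Hochberg adjustment ran over 13644 genes, each represented by its brightest tested probe set, or over probe sets where these are counted. The procedure was run on simulated data with independent noise and few shifted probe sets. That setting differs from these data and does not vouch for the calls. Plots came from matplotlib 3.10.9 (Python 3.11.15). The number of arrays limits the precision.

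The members, classes, partner lists and markers were chosen with earlier results of these data known. Members past the threshold with an absolute log2 change of at least 0.5, or the largest in a class without one, were given by sample. Each partner list names up to 2 genes that rose and 2 that fell, by smallest adjusted p, and MSL1 and MSL2 were added beside MSL3. Other values by sample were chosen after they were seen, and more examples were named in some classes than the 3 planned. Alternatives were 2 other scalings, other filters, pseudocounts and eBayes options, array weights, the replicate number as a block, other ways to represent a gene, and each sample left out in turn.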

Additional observations from a re-analysis of the deposited data

How the results depend on the processing

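Of 35 members called, 17 kept call and direction in every alternative that tested them, of 17 run. Reversed values came from the choice of probe set: HDAC9 gave −1.53 with quantile normalization, −1.48 to 1.18 with 1 sample left out (negative without any 1 of the mutated samples), and −0.24 as the mean of its probe sets, and SETD4 gave −0.093 as the mean and −0.20 without the suffixes _s_at and _x_at. In counts, 21 members fell with quantile normalization and 22 with median centring, against 13, and 46 partner genes fell with either, against 30. Leaving out 1 sample gave 19 to 22 members that rose and 8 to 12 that fell (8 without parental replicate 2), and 31 to 37 partner genes that rose and 21 to 27 that fell. With the replicate number as a block, 20 members rose and 10 fell. The samples share only the number: deviations of same-numbered samples correlated at 0.11, 0.03 and 0.11. In 6 of 6 samples the best match had the same number, a hint from the data and not from the design. These 6 matches rest on the same few correlations and are not independent. Quantile normalization and median centring also brought HDAC4, HDAC10, KAT2A, KDM5A, KDM7A, KMT5B and SETDB1 past the threshold as lower, and median centring alone EP300 and KAT6A. The dim filter left 4 members untested, which limits what can be said of them.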
